A study of Mus musculus with 2 samples.

Results

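The locus of miR-216 and miR-217 on mouse chromosome 11 was examined through 4 mature microRNAs, mmu-miR-217-5p, mmu-miR-217-3p, mmu-miR-216a-5p and mmu-miR-216b-5p (written below without the mouse prefix mmu-), out of 1909 mature microRNAs listed for each library. They were chosen by name, with an earlier result of these data in view, namely the ratio of miR-217-5p between the libraries. That ratio is therefore given as a description, and nothing is supported with it. The other 4 mature names of the locus (miR-216a-3p, miR-216b-3p, miR-216c-5p and miR-216c-3p) are given beside them. Small RNA was sequenced from cultured vascular smooth muscle cells of the thoracic aorta of male mice aged 10 to 12 weeks, kept in DMEM/F-12 medium containing antibiotics and 10% serum of fetal calves. One group was the db/db mouse, a type 2 diabetic mouse homozygous for the Leprdb allele of the leptin receptor gene (labelled background BKS.Cg-m+/+Leprdb/J). The other was the db/+ control, which is heterozygous at that gene (labelled background Lepr+/-). They are called the diabetic and the control library below. Each group had 1 library, and the sources used here do not give the number of mice behind a culture. A difference between the libraries therefore has no replicate check, and it cannot be told apart from a difference between cultures.

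MicroRNAs are short RNAs cut from a hairpin, whose 5p and 3p arms can each be loaded into an Argonaute protein and guide it to messenger RNAs, mainly through the seed near the 5′ end. The miR-216 and miR-217 hairpins are best known from the acinar cells of the pancreas, where they are abundant. Outside the pancreas, miR-217 has been studied as a repressor of the deacetylase Sirt1 in ageing endothelial cells and in senescence. In kidney mesangial cells, miR-216a and miR-217 have been placed downstream of transforming growth factor beta.

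The mature sequences show that the locus holds unlike microRNAs. All 8 were found by name in RefSeq's table for GRCm38.p6, and they are shown because the seed, bases 2 to 8 in capitals, bears on which names could share targets, and the whole sequence on which could share reads.
miR-217-5p: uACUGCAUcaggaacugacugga
miR-217-3p: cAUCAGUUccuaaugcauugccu
miR-216a-5p: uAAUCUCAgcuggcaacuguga
miR-216b-5p: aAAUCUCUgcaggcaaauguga
miR-216a-3p: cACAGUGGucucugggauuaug
miR-216b-3p: aCACUUACcuguagagauucuu
miR-216c-5p: gAAGAAUCucuacagguaagugu
miR-216c-3p: uUUGCCUGcagagauuucccagu
No other microRNA among the 1623 listed names with a RefSeq sequence had the seed of miR-217-5p, nor that of any other of the 8. Among these, the sequence closest to miR-217-5p was miR-196a-2-3p, at 7 edits. The other names of the 1909 were not compared, and whether reads of other RNAs stood under the name miR-217-5p was not tested. The 2 members of the miR-216 family were closer to each other. With positions counted from 1 at the 5′ end of miR-216a-5p, miR-216b-5p differed by U1A, A8U, U11A and C17A and was identical at the other 18 of 22 positions. The pair thus shared bases 2 to 7 and differed in the last base of the seed.

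Mir217, the hairpin of both miR-217 arms, lies at chr11:28763728-28763835 on the plus strand of GRCm38. It is shown because nearly all counts of the locus came from it, and the capitals mark first the 5p and then the 3p arm.
Mir217: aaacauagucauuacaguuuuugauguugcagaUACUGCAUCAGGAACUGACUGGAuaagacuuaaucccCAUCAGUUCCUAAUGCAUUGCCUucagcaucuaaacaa
Mir216a lies upstream on the same strand at chr11:28757012-28757083, and 6644 bases separate the 2 hairpins. In GENCODE M21 both sit in the intron between exons 2 and 3 of Gm12082, a long intergenic noncoding RNA gene at chr11:28751633-28815767 on the plus strand. Mir216b, at chr11:28746191-28746276, lies before the first exon of Gm12082. In RefSeq's annotation of GRCm38.p6 it falls inside the noncoding gene Mir217hg (chr11:28730633-28751781). Despite its name, that gene does not contain Mir217. There, Mir217 and Mir216a fall inside another noncoding gene, Gm40818 (chr11:28754078-28772168). Mir216c, at chr11:28746198-28746266, is read from the opposite strand of Mir216b, and all 69 of its bases were the reverse complement of that hairpin. The nearest protein-coding gene downstream is Efemp1, a gene of an extracellular matrix glycoprotein, which starts at base 28853204.

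**Figure D1:**
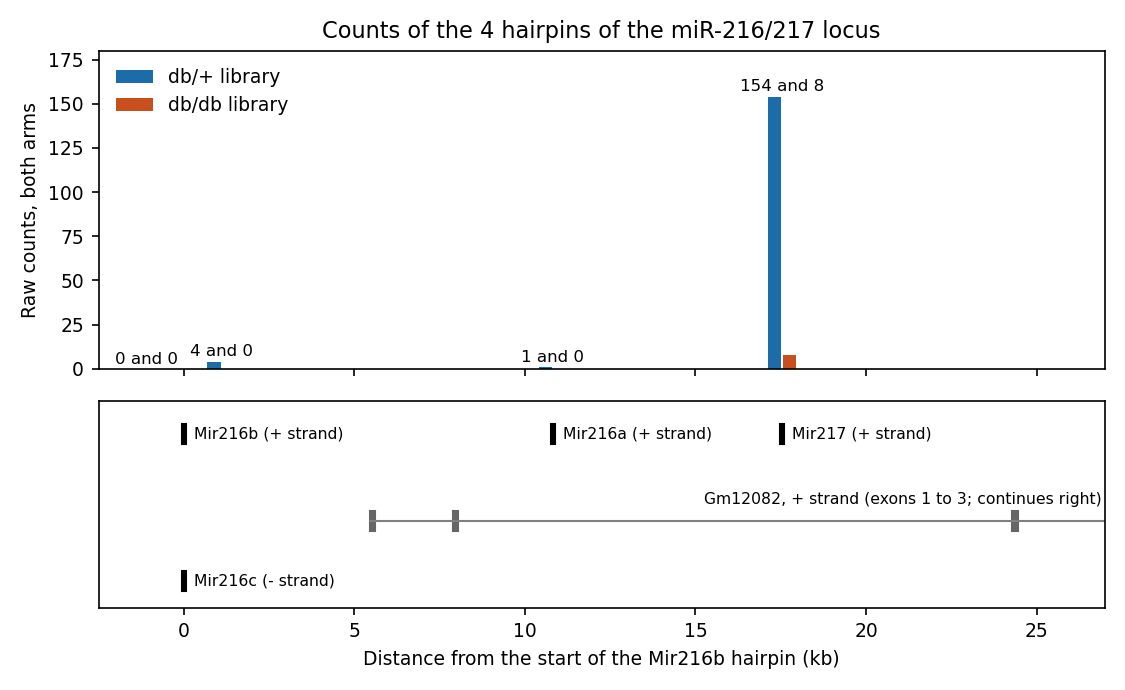
Raw counts of both arms of each hairpin in the control (db/+, blue) and diabetic (db/db, orange) library, above a map in kb from the start of the Mir216b hairpin with the first 3 exons of Gm12082 (grey). Bars of Mir216b and Mir216c, which overlap in the genome, are drawn side by side, and Mir217 stands out with 154 and 8 counts.

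The libraries were of similar depth, at 25915732 microRNA counts for the control and 24295112 for the diabetic one. Levels are given in CPM, the count scaled to 1000000 microRNA counts of the library, and 95% intervals are exact. They cover counting error only, and not variation between cultures. Reads without molecular identifiers may be PCR copies, and the intervals would then be too narrow. A count of 0 was taken to allow 3 counts, or up to 0.116 CPM in the control library and 0.123 CPM in the diabetic one. Smooth muscle markers were present in both libraries. The 4 arms of miR-143 and miR-145a reached 1656 CPM together in the control library and 1567 CPM in the diabetic one, and all 4 were past 50 counts.

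Among the members, miR-217-5p was the one with a countable level, and it was low in the diabetic library. The control library held 151 counts of it, or 5.83 CPM (95% interval 4.93 to 6.83), and the diabetic library 8 counts, or 0.329 CPM (0.142 to 0.649). The counting intervals of the libraries were apart. The ratio of db/db over db/+ was 0.0565 (0.0240 to 0.114), a level 17.7-fold lower (8.75 to 41.7) in the diabetic library, with a log2 ratio of -4.06 after 0.5 counts were added to each. At the rate of the control library, 142 counts would have stood in the diabetic one. Fewer cells with the microRNA and less of it per cell cannot be told apart in such bulk samples. Even in the control library the level was modest, at rank 249 of the 881 microRNAs detected there. In the diabetic library it ranked 516 of 833.

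The 3p arm of the same hairpin, miR-217-3p, was counted 3 times in the control library (0.116 CPM, interval 0.0239 to 0.338) and 0 times in the diabetic one. Both values were at or under the limit that a count of 0 allows, so no fold is given. The 5p arm thus held 98.1% of the 154 miR-217 counts of the control library (exact binomial interval 94.4 to 99.6%). All 8 miR-217 counts of the diabetic library were on the 5p arm (63.1 to 100%). With the arm shares of the control, 8 counts of the 5p arm would go with 0.159 counts of the 3p arm, so a change of arm use was not detectable at this depth.

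Both miR-216 members had 0 counts in both libraries. For miR-216a-5p, the better known arm of the hairpin that shares an intron with Mir217, the level was therefore at most 0.116 CPM in the control library and 0.123 CPM in the diabetic one. The same limits held for miR-216b-5p. In the control library, the 151 counts of miR-217-5p were 50.3-fold the 3-count limit of either miR-216 member. In the diabetic library its 8 counts were 2.67-fold that limit. Both folds leave out the counting error of miR-217-5p itself. Mature microRNAs are counted as whole molecules of nearly equal length (22 and 23 bases here). Capture of different sequences can differ and was not measured, so these folds compare counts and not molecules. Whether the miR-216 members differed between the libraries was not detectable at this depth.

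The remaining arms had few counts, all in the control library. The antisense microRNA miR-216c-5p was counted 4 times there (0.154 CPM, interval 0.0421 to 0.395) against 0 in the diabetic library, and the interval of its ratio, 0 to 1.62, included 1. It covers all 22 positions of miR-216b-3p on the other strand, and miR-216b-3p itself had 0 counts in both libraries. The 3p arm miR-216a-3p had 1 count against 0, and miR-216c-3p had 0 in both. The 6 miR-216 names together had 5 control counts (0.193 CPM, interval 0.0626 to 0.450) and 0 diabetic ones, with a ratio interval of 0 to 1.16 that also included 1. The 4 members came to 154 control and 8 diabetic counts, and their ratio was 0.0554 (0.0235 to 0.112). It rested on miR-217-5p, which held 151 of the 154 and all 8.

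**Figure D2:**
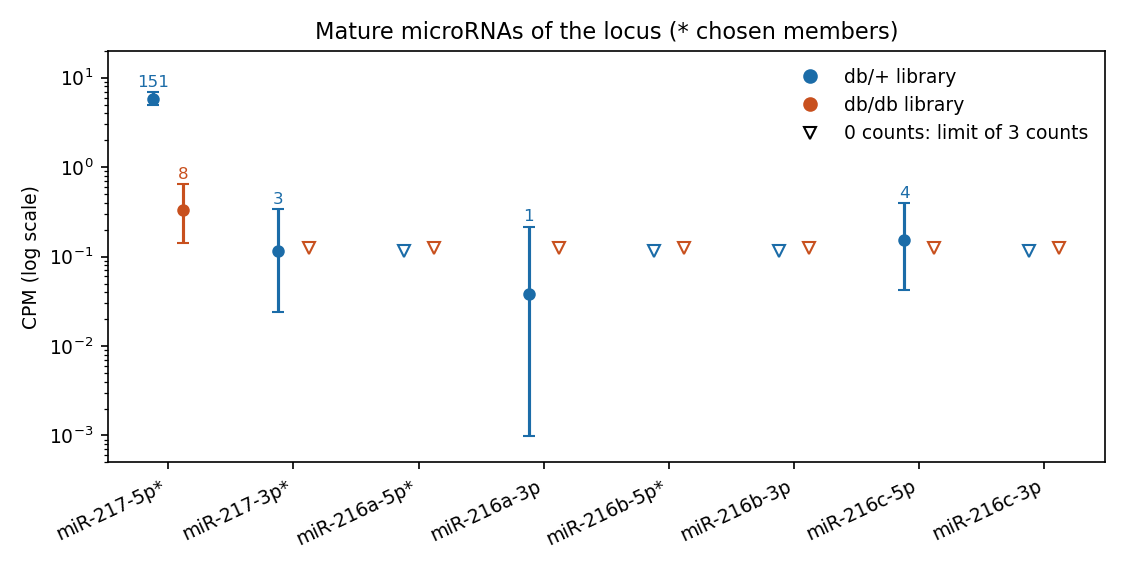
CPM on a log axis of the 8 mature microRNAs of the locus in the control (db/+, blue) and diabetic (db/db, orange) library; filled points carry exact Poisson 95% intervals with the count above, and open triangles mark the limit of 3 counts where the count was 0. Only miR-217-5p has intervals that are apart, with 151 control and 8 diabetic counts.

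Few of all microRNAs had a difference of that size between these libraries. Of the 356 microRNAs with at least 50 counts in 1 library, the floor used for the counts here, 48 (13.5%) were at least 2-fold lower in the diabetic library and 10 (2.81%) at least 4-fold lower. One member, miR-217-5p, passed the floor and was among both, as its choice implies, so nothing is read from this count. Its ratio was the lowest of the 356, but 9 others had intervals that reached into its own. Most microRNAs counted about as often in the control library differed less. Of the 116 microRNAs with 75 to 300 counts in the control library, only miR-217-5p and miR-199b-5p had 8 counts or fewer in the diabetic one, 90 had a ratio between 0.5 and 2, and the median ratio was 0.859. The range of counts was chosen after the value of miR-217-5p was known. The cutoff of 8 is the diabetic count of miR-217-5p itself, so its own place under the cutoff was fixed in advance.

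The microRNAs most like miR-217-5p were those nearest in log2 CPM over both libraries, with 0.5 counts added. The closest, miR-9-3p, lay at a distance of 0.44 log2 units, at 154 control and 11 diabetic counts. Its ratio was 0.0762 (0.0373 to 0.140). The next was miR-199b-5p, at 0.88 log2 units, with 87 and 6 counts. It was followed by miR-196a-1-3p with 160 and 16 counts, miR-669d-5p with 64 and 6, and miR-669m-5p with 67 and 13. The last had the same counts as miR-466m-5p. Likeness over 2 libraries is a description of their counts and nothing more.

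**Figure D3:**
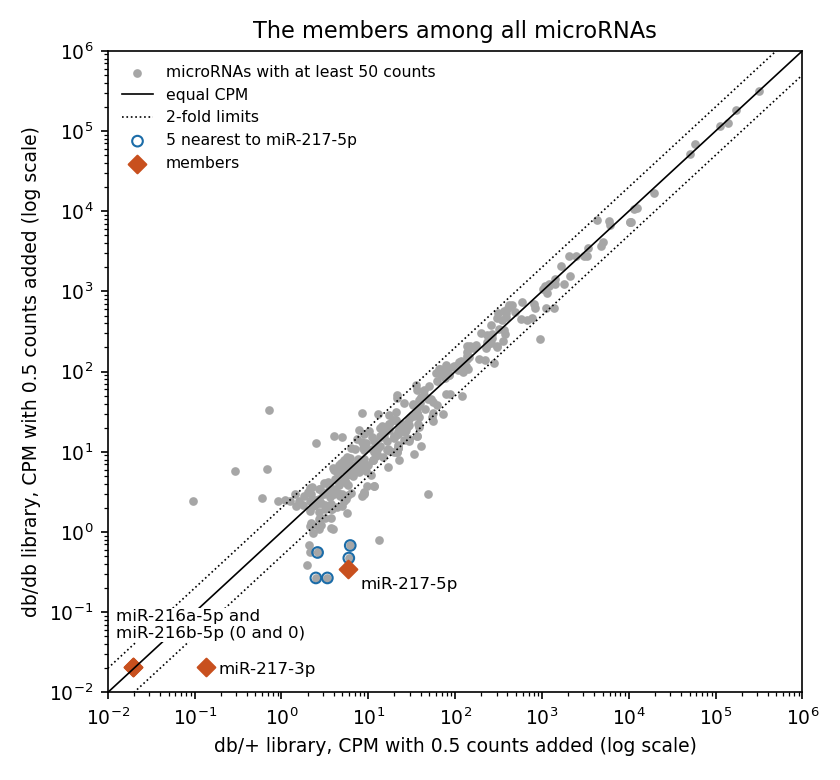
CPM with 0.5 counts added in the control (db/+) library (x) and the diabetic (db/db) library (y), both on log axes, for the 356 microRNAs with at least 50 counts in 1 library (grey), the 4 members (orange diamonds) and the 5 microRNAs nearest to miR-217-5p (blue rings). The diamond of miR-217-5p lies far below the lower dotted 2-fold limit, and the diamonds of miR-216a-5p and miR-216b-5p coincide at the lower left corner.

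The target Sirt1 was searched for matches to bases 2 to 8 of the members. Shorter seed matches were not searched, so a member without a match is not shown to be unable to pair with it. In the longest annotated 3′ UTR of Sirt1 (1631 bases, GENCODE M21), the sense strand held 1 match to bases 2 to 8 of miR-217-5p, the letters ATGCAGT. It starts at base 1355 of the UTR, at chr10:63319275-63319281 on the minus strand of GRCm38, and is shown in capitals with its neighbours.
Sirt1 site: ggctacactaaagaATGCAGTa
Of the 1441 genes with a 3′ UTR within 10% of that length, 11.5% held the same letters. No match in this UTR was found for miR-217-3p (AACTGAT), miR-216a-5p (TGAGATT) or miR-216b-5p (AGAGATT). A match is a description of letters and not a shown site, and messenger RNA was not measured here.

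Other microRNAs that have been linked to the same target and processes are given in lists. Since miR-217-5p was chosen with its ratio known, its place in them is not a finding. The lists below overlap, all hold miR-217-5p, and were drawn up with earlier results of these data known. Of the 9 microRNAs listed as repressors of Sirt1, 7 passed the floor. Of these, 3 were at least 2-fold lower in the diabetic library and 0 higher, against 13.5% and 4.49% of all 356. Without miR-217-5p, 2 of 6 were lower. The median log2 ratio was -0.99 with miR-217-5p and -0.78 without it, beside -0.14 over all 356. Besides miR-217-5p, the lower ones were miR-9-5p (347 control and 19 diabetic counts), whose ratio was 0.0584 (0.0347 to 0.0926), and miR-132-3p (146 and 41), whose ratio was 0.2996 (0.206 to 0.426). The p53-induced miR-34a-5p lay just short of the 2-fold limit at 0.505 (0.459 to 0.554), and the far more abundant miR-181a-5p had 1.24 (1.21 to 1.28).

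Of the 12 microRNAs linked to matrix in the diabetic kidney, 9 passed the floor, with 3 at least 2-fold lower and 0 higher, against the same 13.5% and 4.49%. Without miR-217-5p it was 2 of 8 lower. The median log2 ratio was -0.51 with and without it, beside -0.14 over all 356. There miR-377-3p had 0.339 (0.257 to 0.442), miR-194-5p had 0.396 (0.262 to 0.586), and miR-192-5p, placed upstream of miR-216a and miR-217 in mesangial cells, had 0.979 (0.946 to 1.01). The ratio of miR-192-5p lay above 1 under the other scalings.

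The senescence list had 12 of 13 members past the floor, 4 at least 2-fold lower and 1 higher, read against 13.5% and 4.49% of all 356. Leaving out miR-217-5p, 3 of 11 were lower. Its median log2 ratio was -0.54, or -0.51 without miR-217-5p, beside -0.14 over all. The lower ones were miR-217-5p, miR-146b-5p (0.264), miR-17-5p (0.442) and miR-20a-5p (0.467), and the higher one was miR-146a-5p (5.05, interval 3.86 to 6.71), a brake on inflammatory signalling. Under 4 other scalings the counts of 2-fold lower members in these lists did not differ from those given.

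**Figure D4:**
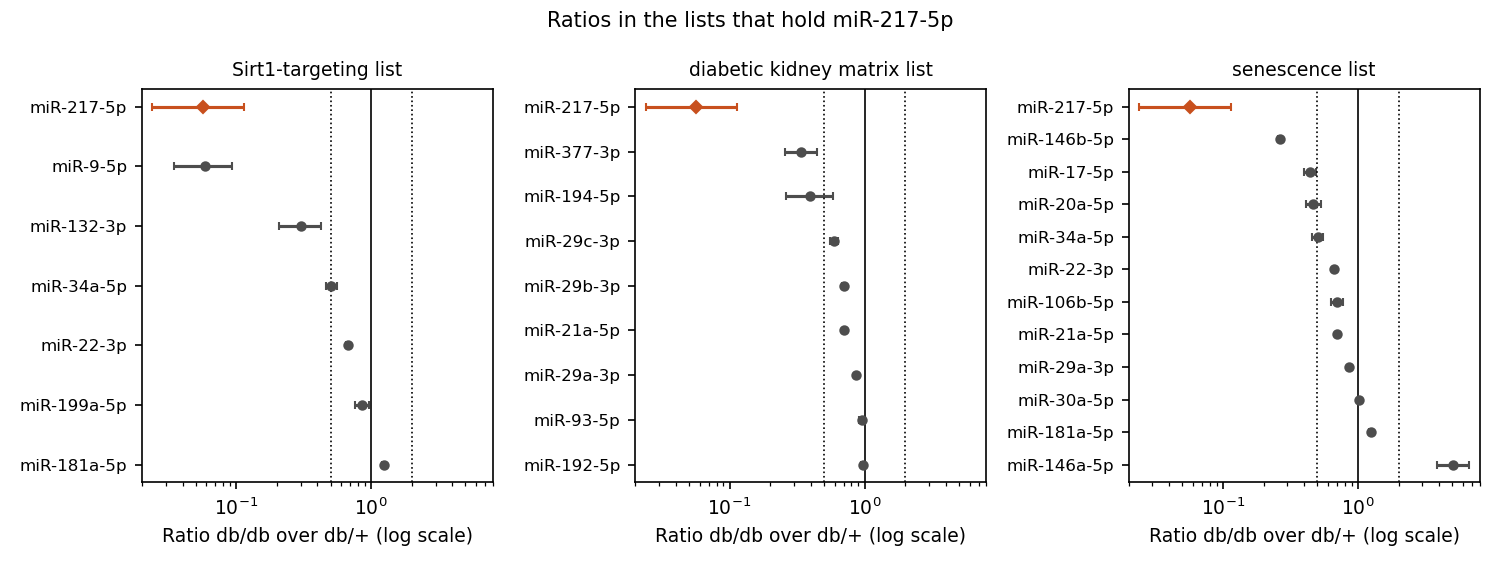
Ratio of db/db over db/+ (log axis, exact conditional 95% intervals) of the microRNAs with at least 50 counts in 1 library in each of 3 lists; the solid line marks 1, dotted lines mark 2-fold, and the orange diamond is miR-217-5p. Besides miR-217-5p, which was chosen with its ratio known, the lowest ratios are 0.0584 for miR-9-5p (Sirt1 list), 0.339 for miR-377-3p (matrix list) and 0.264 for miR-146b-5p (senescence list).

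Of the 8 microRNAs of the exocrine pancreas list, 6 of them from the locus itself, 2 passed the floor. One of these was miR-217-5p, and the other lay in the opposite direction. The acinar-rich miR-148a-3p, which many other cells also express, was higher in the diabetic library, where it had 1247 counts against 548 in the control, for a ratio of 2.43 (2.19 to 2.69). The islet microRNA miR-375-3p had 5 control counts and 0 diabetic ones, with a ratio interval of 0 to 1.16 that included 1. Markers of other cells were scarce in both libraries. Endothelial markers (2 arms of miR-126a) had 7 control and 71 diabetic counts, and so lay opposite to miR-217-5p as a sum. Most of these were of miR-126a-5p (2 and 58 counts), whose ratio was 30.9 (8.19 to 261). For miR-126a-3p (5 and 13 counts) the ratio interval, 0.928 to 9.94, included 1. Blood markers had 18 and 16 counts, with 3 of 5 at 0 in both libraries (miR-144-3p, miR-142a-3p and miR-223-3p), and the 5 epithelial markers had 6 and 22. The part of these other cells in the miR-217-5p counts was not tested.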

How the data were processed

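Small RNA libraries of cultured aortic smooth muscle cells were compared, 1 from db/+ and 1 from db/db mice. The authors deposited raw read counts per mature microRNA and TMM-normalized reads, per the file headers. TMM, the trimmed mean of M values, scales libraries on the assumption that few features differ. Since those normalized values are whole numbers, this deposited column was treated as a score, and its ratio served as an alternative only. Novoalign, edgeR and mm10 are named, without roles or versions, per the submitters' processing notes. How reads were trimmed, how many mismatches were allowed and how multiply matching reads were counted is not given in the sources used here.

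Counts were scaled to the total of each library. Ratios carry exact conditional (Clopper-Pearson) 95% intervals and levels exact Poisson ones (scipy 1.17.1, Python 3.11.15). With 1 library per group no test between groups was possible and no p-value was computed. Values beyond 2-fold with at least 50 counts in 1 library were counted. In place of the library total, edgeR 4.0.16 (TMM and upper-quartile factors) and DESeq2 1.42.0 (size factors) served as other scalings, with R 4.3.3. A further scaling was the library total without the 10 most abundant microRNAs. Simulated counts of 1909 microRNAs for db/db over db/+ were drawn with Poisson counting error only, with 200 rates changed by known folds. With 347 past the floor, 94.5% of intervals held the simulated ratio. The intervals assume that same error, so this checks their calculation and not how they fare with PCR or culture variation. Named microRNAs were the members, the other arms of the locus, the list members and the 5 nearest to miR-217-5p. Outside that rule, miR-340-5p, miR-466m-5p and miR-196a-2-3p were named after their values were seen. One further list of the design is not reported here. The members and lists were chosen with earlier results of these data known. Sequences come from RefSeq (GRCm38.p6) and GENCODE M21 (GRCm38, the assembly also called mm10).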

Additional observations from a re-analysis of the deposited data

How the results depend on the processing

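The ratio of miR-217-5p was 0.0565 with library totals and between 0.0589 and 0.0634 under the other scalings, the deposited normalized reads (142 and 9) included, all inside its counting interval. Adding 0.1 counts gave a log2 ratio of -4.13 and adding 5 gave -3.49. Scaling raised all log2 ratios by 0.06 to 0.10. The number of microRNAs at least 2-fold lower was 91 at a floor of 10 counts, 259 with no floor and 10 at 4-fold, and the number higher was 46, 171 and 6, as the thresholds dictate. The other 40 of 46 alternative values stayed within their interval, within 1.5 times or, for list medians, within 1 SD over members. The 8 counts in db/db limit the precision of the ratio, and counts of 0 limit all statements on the miR-216 arms. No paired analysis was possible because there was 1 library in each group. For the same reason no library could be left out.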

Other observations

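Chromosome 11 carried 27 other microRNAs with a single precursor there and at least 50 counts in 1 library. Of these, 6 (22.2%) were at least 2-fold lower in db/db and 1 was higher, beside 13.5% and 4.49% of all 356 microRNAs, with a median log2 ratio of -0.50 against -0.14 over the 356. Neighbours of miR-217-5p were far away. The nearest of the 27, miR-146a-5p, lies 14.6 Mb from the Mir217 hairpin and had the highest ratio of the 27, 5.05 (3.86 to 6.71). The next, miR-340-5p, lies 21.3 Mb away and had 696 and 454 counts, a ratio of 0.696 (0.617 to 0.784). The lowest ratio of the 27, 0.107 (0.0595 to 0.179), was that of miR-196a-1-3p, 67.5 Mb away.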
